A study of Homo sapiens with 10 samples.

Results

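The comparison described here is the response of PC9 cells to GNF5, set against PC9 cells given DMSO, the solvent. PC9 is a human lung adenocarcinoma line, known for an activating deletion in the EGF receptor gene, and GNF5 is an inhibitor of the ABL kinases ABL1 and ABL2 that binds the myristoyl pocket rather than the ATP site. The treated culture received GNF5 for 72 h at a dose the labels write as 10 mM, a unit that could not be checked. The series holds 10 cultures, each sequenced as 1 library: GNF5 and DMSO in PC9, PC9M and H358, and shRNAs against ABL1 and ABL2 and a scrambled shRNA in PC9 and PC9M, the shRNAs delivered with 8 µg/mL polybrene. PC9M is labelled as more metastatic to bone and brain, and H358 is a further lung adenocarcinoma line. By the labels GNF5 was given for 72 h in these lines too, at 20 mM in PC9M and 10 mM in H358. Each group is 1 culture of 1 line, so no value below carries a replicate error and no test was made, and a difference is a difference between these libraries.

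Levels are FPKM, fragments scaled for transcript length and library size, as the authors computed them for this pair of libraries. Of 23270 gene entries, 28 had a symbol turned into a date and 1591 were MIR, SNORD or SNORA entries, and both were left out. Of the other 21651, the 8281 with at least 5 FPKM in either library were kept, which is 35.6% of all entries, and 13370 lay below that level. ALG13, at 4.38 FPKM with GNF5 and 5.01 FPKM with DMSO, and PLA2G7, at 1.502 FPKM with GNF5 and 5.01 FPKM with DMSO, were just inside the level, while SERPINB8, at 0.729 FPKM with GNF5 and 4.997 FPKM with DMSO, and USP12, at 4.998 FPKM with GNF5 and 4.04 FPKM with DMSO, were just outside. The value used for each gene is the log2 ratio of GNF5 over DMSO after adding 1 FPKM to each, centred on the median of the genes kept, which was -0.068. A fold on that scale understates the difference of genes with low levels. A gene under 5 FPKM in 1 library was kept only through its level in the other, so such genes differ by the way they were kept. A gene is called higher or lower where the centred ratio is at least 1 in size, a 2-fold difference.

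ABL kinases pass signals from growth factor receptors and integrins to the actin cytoskeleton, and GNF5 acts on the proteins, not on their transcripts. ABL1 stood at 17.8 FPKM in the GNF5 library and 18.0 FPKM in the DMSO library, and ABL2 at 7.09 FPKM in the GNF5 library and 4.17 FPKM in the DMSO library, centred ratios of 0.057 and 0.72. The transcript levels therefore do not check whether the inhibitor reached its target, unlike the shRNA culture, where ABL1 stood at 3.97 FPKM with the shRNAs and 24.9 FPKM with the scrambled shRNA. Of 26 listed ABL adaptors and actin substrates 24 were kept, 1 at least 2-fold higher and 1 lower, beside 5.25% and 5.93% of all genes. The WAVE complex subunit WASF2 was higher, at 59.0 FPKM with GNF5 and 29.7 FPKM with DMSO, and cortactin, CTTN, an actin-branching protein that ABL kinases phosphorylate, was lower, at 70.1 FPKM with GNF5 and 164 FPKM with DMSO. The other 22 differed less than 2-fold, among them the adaptors CRK, at 27.5 FPKM with GNF5 and 37.9 FPKM with DMSO, and CRKL, at 29.9 FPKM with GNF5 and 27.2 FPKM with DMSO.

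The defining markers of epithelium were abundant in both libraries. Keratin KRT8 stood at 2485 FPKM with GNF5 and 1881 FPKM with DMSO, KRT18 at 2651 FPKM with GNF5 and 1958 FPKM with DMSO and EPCAM at 313 FPKM with GNF5 and 333 FPKM with DMSO. The lung lineage factor NKX2-1 was listed at 0 with GNF5 and at 0.0130 FPKM with DMSO. FOXA2 was listed at 0.0683 FPKM with GNF5 and 0.146 FPKM with DMSO, so both factors were near absent. Other lung markers were present: SFTPB stood at 3.95 FPKM with GNF5 and 15.2 FPKM with DMSO. NAPSA was low, at 1.23 FPKM with GNF5 and 1.37 FPKM with DMSO. Of 7 fibroblast markers 6 were listed at 0 with GNF5 and 5 with DMSO, and the leukocyte marker PTPRC was near 0 in both. The endothelial markers PECAM1 and CDH5 were listed at 11.3 and 4.43 FPKM with GNF5, against 23.2 and 8.32 FPKM with DMSO, while VWF and KDR were near 0 in both, and whether these transcripts come from a subset of cells or from all cells cannot be told apart in bulk RNA. Summed over 4 endothelial markers the levels were 15.8 FPKM with GNF5 and 31.6 FPKM with DMSO, and over 7 leukocyte markers, mostly CD68, 18.3 FPKM with GNF5 and 10.8 FPKM with DMSO, and their part in the results was not tested. FPKM sums were 627914 with GNF5 and 539485 with DMSO, 7738 and 8065 genes reached 5 FPKM in those libraries, and steps between low values put the depth of the GNF5 library at 1.01 times that of the DMSO library. The number of reads is unknown, so no counting interval can be given.

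Of the 8281 genes, 435 were at least 2-fold higher with GNF5 (5.25%) and 491 at least 2-fold lower (5.93%), together 926 (11.2%), and 39 and 38 of them were past 4-fold. The same rule found 206 genes of 8714 (2.36%) with GNF5 in PC9M, 153 of 9270 (1.65%) with GNF5 in H358, 162 of 8474 (1.91%) with the ABL1/ABL2 shRNAs in PC9, and 74 of 8522 (0.868%) with the shRNAs in PC9M. The spread of the centred ratio was wider as well, with an SD across genes of 0.667 against 0.257 to 0.405 in those 4 pairs, and whether the treatment or the single cultures set that width was not tested. The authors' deposited table, which tests 1 library against 1, marks 24 of the genes kept as significant, 11 higher (0.133%) and 13 lower (0.157%).

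**Figure D1:**
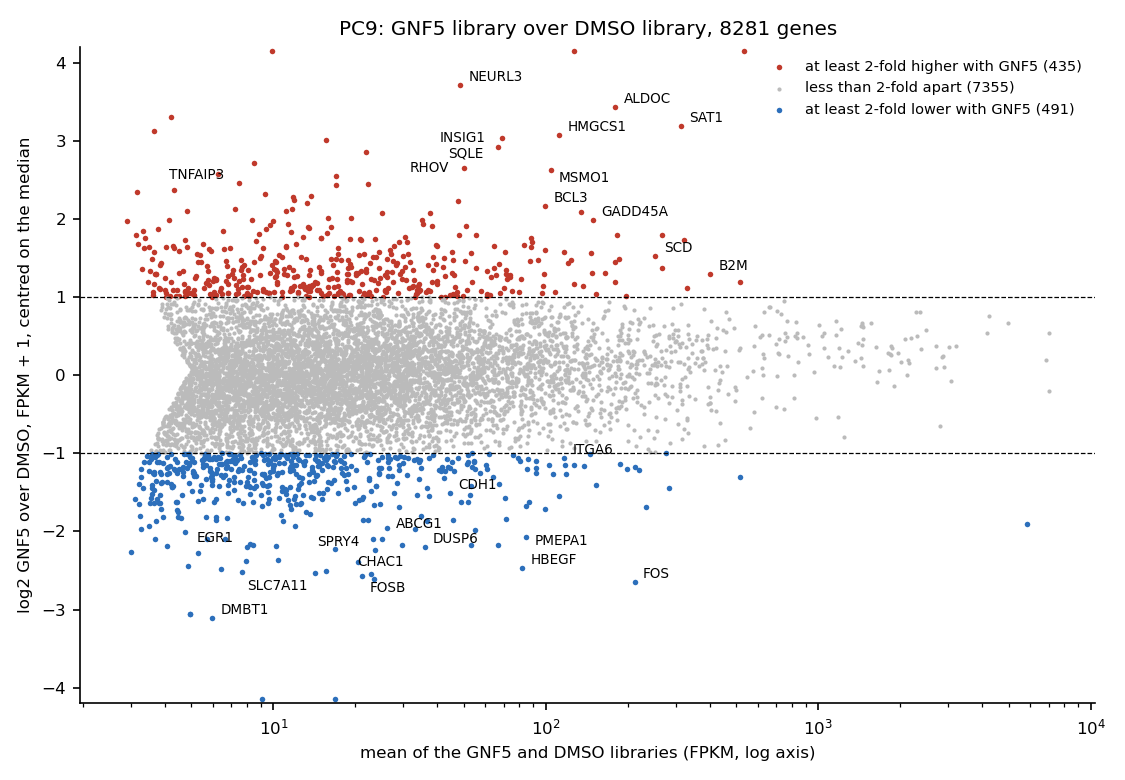
Centred log2 ratio of GNF5 over DMSO in PC9 (vertical axis) against the mean FPKM of both libraries (horizontal, log axis) for the 8281 genes kept, 1 point a gene. Red points are the 435 genes at least 2-fold higher with GNF5, blue points the 491 at least 2-fold lower, dashed lines the 2-fold limit, and the 5 genes beyond the axis are drawn at its edge.

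The scrambled and shRNA libraries give each PC9 gene a second pair of levels, from a table normalised separately. Set across tables and centred, 255 genes stood at least 2-fold higher in the GNF5 library than in each of the other 3 PC9 libraries (3.08%) and 225 at least 2-fold lower (2.72%). The DMSO library stood apart in the same way for 102 genes that were higher (1.23%) and 41 that were lower (0.495%), and the shRNA and scrambled libraries for 53 (0.64%) and 32 (0.386%) genes in either direction. The genes were kept by their level with GNF5 or DMSO, which lowers the counts of the shRNA and scrambled libraries. For a ratio of GNF5 over DMSO either library can thus be the one that stands apart. The shRNA and scrambled cultures were both transduced, so a shift that came with transduction cannot be told apart from a trait of the DMSO library. The levels in all 4 are given below for some of the genes that lead each group.

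Cholesterol synthesis held the highest list median. Cells make cholesterol from acetyl-CoA through mevalonate, squalene and lanosterol, and when ER cholesterol is low, SCAP carries the SREBP factors to the Golgi for cleavage, after which they enter the nucleus and switch the pathway on. All 21 listed enzymes were kept, 14 were at least 2-fold higher and 0 lower with GNF5, beside 5.25% and 5.93% of all genes, and the list median was 1.64. Early in the pathway, HMGCS1, which makes HMG-CoA, stood at 199 FPKM in the GNF5 library and 24.02 FPKM in the DMSO library. The squalene epoxidase SQLE stood at 118 FPKM with GNF5 and 15.5 FPKM with DMSO, the sterol methyl oxidase MSMO1 at 179 FPKM with GNF5 and 29.5 FPKM with DMSO and the lanosterol demethylase CYP51A1 at 56.0 FPKM with GNF5 and 14.1 FPKM with DMSO. Enzymes late in the pathway were higher too, DHCR7 at 135 FPKM with GNF5 and 42.6 FPKM with DMSO and EBP at 25.9 FPKM with GNF5 and 8.67 FPKM with DMSO. PMVK, at 6.58 FPKM with GNF5 and 9.13 FPKM with DMSO, GGPS1, at 6.82 FPKM with GNF5 and 9.78 FPKM with DMSO, and TM7SF2, at 4.84 FPKM with GNF5 and 6.22 FPKM with DMSO, were the 3 of 21 on the lower side, each by less than 2-fold.

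The DMSO library was the low one for much of this list. HMGCS1 stood at 183 FPKM with the shRNAs and 115 FPKM with the scrambled shRNA, and ACAT2, at 26.0 FPKM with GNF5 and 6.61 FPKM with DMSO, stood at 43.6 FPKM with the shRNAs and 27.3 FPKM with the scrambled shRNA. In 7 of the 21 enzymes the DMSO library was at least 2-fold below each of the other 3 PC9 libraries, beside 0.495% of all genes. MSMO1, at 62.3 FPKM with the shRNAs and 40.9 FPKM with the scrambled shRNA, was the 1 enzyme for which the GNF5 library stood at least 2-fold above all 3 (3.08% of all genes). Over the scrambled library, across tables, the list median was 0.79, and 7 enzymes were at least 2-fold higher and 0 lower, beside 14.5% and 11.7% of all genes. Both comparisons share the GNF5 library. In the authors' deposited table q was 0.00261 for HMGCS1, 0.00110 for SQLE and 0.00958 for MSMO1, but 0.205 for CYP51A1, 0.480 for DHCR7, 0.646 for EBP and 0.9999 for ACAT2.

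The sequence before the start site is shown for 3 of these enzymes, because the SREBP factors act there together with NF-Y, which binds the letters CCAAT. The 250 bases upstream come from RefSeq on GRCh38.p14, matched by symbol for 15 of the 21 enzymes, and run 5′ to 3′ on the strand of the gene with CCAAT or its reverse complement in capitals. HMGCS1 lies at chr5:43313413-43313662 (- strand), MSMO1 at chr4:165327419-165327668 (+ strand) and MVD at chr16:88663092-88663341 (- strand).
HMGCS1: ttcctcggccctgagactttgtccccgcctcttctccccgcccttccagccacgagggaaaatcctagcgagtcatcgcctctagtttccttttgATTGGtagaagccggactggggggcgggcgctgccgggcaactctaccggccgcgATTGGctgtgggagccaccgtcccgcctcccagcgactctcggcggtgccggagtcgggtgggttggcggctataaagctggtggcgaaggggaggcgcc
MSMO1: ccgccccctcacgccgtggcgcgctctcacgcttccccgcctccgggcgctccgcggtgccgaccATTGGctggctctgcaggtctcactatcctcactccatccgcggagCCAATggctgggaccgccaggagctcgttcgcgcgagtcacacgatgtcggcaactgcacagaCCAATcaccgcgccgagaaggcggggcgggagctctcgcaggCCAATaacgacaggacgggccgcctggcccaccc
MVD: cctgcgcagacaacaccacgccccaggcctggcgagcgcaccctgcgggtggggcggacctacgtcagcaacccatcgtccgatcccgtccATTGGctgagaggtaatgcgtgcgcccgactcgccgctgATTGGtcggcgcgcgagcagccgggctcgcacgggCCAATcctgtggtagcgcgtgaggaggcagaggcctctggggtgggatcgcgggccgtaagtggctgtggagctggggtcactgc
Read on both strands, CCAAT was found in 11 of the 15 (73.3%), against 2140 of the 6078 genes kept that have such a sequence (35.2%). The letters ATCACNCCA, most of a sterol element, were found on either strand in 0 of the 15 and in 17 of the 6078 (0.28%), SREBF2 being 1 of these. A match is a description of the letters and not a measured site.

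The genes around the pathway did not move as a block. INSIG1, which holds SCAP in the ER and is itself a target of SREBP, was among the 15 genes furthest on the higher side, at 123 FPKM in the GNF5 library and 14.9 FPKM in the DMSO library, with 49.9 FPKM with the shRNAs and 33.5 FPKM with the scrambled shRNA. The factor genes themselves differed less than 2-fold, SREBF2 at 187 FPKM with GNF5 and 134 FPKM with DMSO and SREBF1 at 109.6 FPKM with GNF5 and 152 FPKM with DMSO. The sterol exporters, targets of the LXR receptors that sense oxysterols, lay on the other side: ABCG1 stood at 9.70 FPKM with GNF5 and 42.7 FPKM with DMSO and ABCA1 at 7.62 FPKM with GNF5 and 15.9 FPKM with DMSO. For ABCG1 the DMSO library stood apart, since it was listed at 1.62 FPKM with the shRNAs and 2.47 FPKM with the scrambled shRNA. Of 15 kept genes of sterol sensing, uptake and transport, of 17 listed, 3 were higher and 1 was lower, beside 5.25% and 5.93% of all genes, with a median of 0.17.

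Fatty acid synthesis went with cholesterol synthesis in direction. Of 17 listed genes 14 were kept, and 6 were at least 2-fold higher and 0 lower, beside 5.25% and 5.93% of all genes, with a median of 0.85. The desaturase SCD stood at 370.2 FPKM in the GNF5 library and 135 FPKM in the DMSO library, with 159 FPKM with the shRNAs and 105 FPKM with the scrambled shRNA, so that the GNF5 library stood above the other 3. Fatty acid synthase FASN stood at 260.4 FPKM with GNF5 and 99.7 FPKM with DMSO, and the elongase ELOVL5 at 97.2 FPKM with GNF5 and 37.5 FPKM with DMSO. ACLY, which makes cytosolic acetyl-CoA, stood at 80.6 FPKM with GNF5 and 41.2 FPKM with DMSO, ACSL4 at 30.1 FPKM with GNF5 and 12.0 FPKM with DMSO and ACSL1 at 32.2 FPKM with GNF5 and 15.4 FPKM with DMSO, the last 2 coupling fatty acids to CoA. The desaturases FADS1, at 21.9 FPKM with GNF5 and 24.02 FPKM with DMSO, and FADS2, at 12.6 FPKM with GNF5 and 14.3 FPKM with DMSO, were level.

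**Figure D2:**
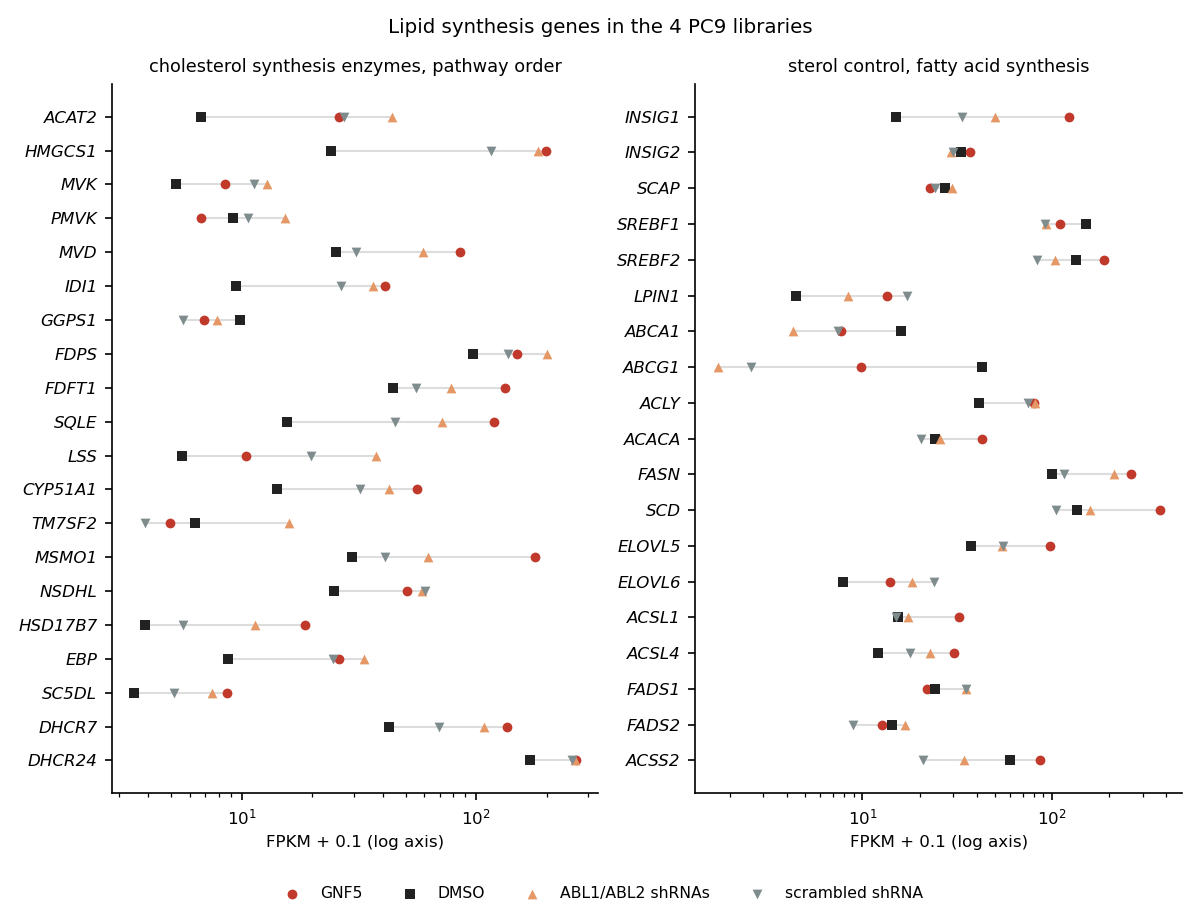
FPKM plus 0.1 (log axis) of 20 cholesterol synthesis enzymes, in pathway order, and of 19 genes of sterol control and fatty acid synthesis in the 4 PC9 libraries. Red circles are GNF5, black squares DMSO, orange triangles the ABL1/ABL2 shRNAs and grey triangles the scrambled shRNA, the last 2 from a separately normalised table. The black square is the lowest of the 4 for most enzymes, and the red circle is the highest for SCD, MSMO1 and INSIG1.

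NF-kB genes were the next group by list median among the lists with at least 3 genes kept. NF-kB dimers are held in the cytoplasm by the IkB proteins, are released by inflammatory signals, and induce their own inhibitors, among them NFKBIA and TNFAIP3. Of 23 listed genes 18 were kept, 9 at least 2-fold higher and 0 lower, beside 5.25% and 5.93% of all genes, with a median of 1.03. RELB, BIRC3, IRF1 and TNFAIP3 reached 5 FPKM with GNF5 but not with DMSO, so they were kept through the library where they are high. With no minimum level the median over all 23 was 0.61, with 9 higher and 0 lower. The subunit gene RELB stood at 19.5 FPKM in the GNF5 library and 3.93 FPKM in the DMSO library, and the atypical IkB protein BCL3 at 162 FPKM in the GNF5 library and 37.1 FPKM in the DMSO library. The ubiquitin ligase BIRC3 stood at 5.90 FPKM with GNF5 and 0.427 FPKM with DMSO and the transcription factor IRF1 at 8.38 FPKM with GNF5 and 1.29 FPKM with DMSO. The inhibitor NFKBIA stood at 87.7 FPKM with GNF5 and 37.8 FPKM with DMSO. The subunits RELA, at 119 FPKM with GNF5 and 85.5 FPKM with DMSO, and NFKB1, at 9.49 FPKM with GNF5 and 9.93 FPKM with DMSO, differed less than 2-fold.

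For 6 of the 18 the GNF5 library stood at least 2-fold above each of the other 3 PC9 libraries, beside 3.08% of all genes. Among these 6, RELB, BIRC3 and IRF1 were kept only through their level with GNF5. BCL3 stood at 14.8 FPKM with the shRNAs and 16.4 FPKM with the scrambled shRNA, NFKBIA at 17.1 FPKM with the shRNAs and 19.2 FPKM with the scrambled shRNA and IRF1 at 1.26 FPKM with the shRNAs and 1.43 FPKM with the scrambled shRNA. TNFAIP3, a deubiquitinase that ends the signal, was an exception, at 13.3 FPKM with GNF5 and 1.72 FPKM with DMSO. It stood at 13.5 FPKM with the shRNAs and 19.2 FPKM with the scrambled shRNA, so the DMSO library was the low one. In the authors' deposited table q was 0.000465 for BIRC3 and 0.00996 for TNFAIP3, but 0.0590 for IRF1, 0.139 for BCL3, 0.231 for RELB and 0.689 for NFKBIA. Of 29 cytokines and chemokines 6 reached 5 FPKM. CSF1, the macrophage growth factor, stood at 138 FPKM with GNF5 and 58.3 FPKM with DMSO, IL1B at 25.8 FPKM with GNF5 and 15.5 FPKM with DMSO and IL1A at 4.78 FPKM with GNF5 and 10.0 FPKM with DMSO.

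Most of the NF-kB consensus was looked for in the same way, as GGGNNTTTC on both strands, and 3 of the genes that hold it are shown, since each is a known target. It was found upstream of 6 of 16 genes of the list with a sequence (37.5%), which were TNFAIP3, BIRC3, REL, NFKBIA, TRAF3 and NFKB1, and in 258 of the 6078 genes kept (4.25%). BIRC3 lies at chr11:102317234-102317483 (+ strand), NFKBIA at chr14:35404750-35404999 (- strand) and TNFAIP3 at chr6:137867009-137867258 (+ strand), on GRCh38.p14, and these letters or their reverse complement are in capitals.
BIRC3: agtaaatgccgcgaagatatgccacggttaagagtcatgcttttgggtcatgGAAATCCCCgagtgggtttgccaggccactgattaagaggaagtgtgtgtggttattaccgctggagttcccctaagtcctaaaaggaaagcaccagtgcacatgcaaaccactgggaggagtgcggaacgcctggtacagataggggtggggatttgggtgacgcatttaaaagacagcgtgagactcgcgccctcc
NFKBIA: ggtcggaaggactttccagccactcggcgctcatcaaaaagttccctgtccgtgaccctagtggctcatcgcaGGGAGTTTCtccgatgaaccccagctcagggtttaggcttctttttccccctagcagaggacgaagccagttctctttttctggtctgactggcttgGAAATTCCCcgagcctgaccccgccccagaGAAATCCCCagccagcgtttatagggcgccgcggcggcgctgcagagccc
TNFAIP3: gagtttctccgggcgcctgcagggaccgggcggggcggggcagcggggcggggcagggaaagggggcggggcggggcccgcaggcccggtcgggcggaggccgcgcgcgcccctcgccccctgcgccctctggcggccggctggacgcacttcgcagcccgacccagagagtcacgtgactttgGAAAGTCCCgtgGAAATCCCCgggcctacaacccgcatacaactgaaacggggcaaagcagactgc
Of the 6 genes, NFKB1 and TRAF3 were level with GNF5, at centred ratios of 0.0092 and 0.025, while BCL3, at a ratio of 2.16, holds none of these letters in the window.

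MHC class I genes, which display cytosolic peptides at the cell surface, lay on the same side. Of 19 listed genes 14 were kept, 5 at least 2-fold higher and 0 lower, beside 5.25% and 5.93% of all genes, with a median of 0.83. With no minimum level the median over all 19 was 0.44, with 5 higher and 0 lower. The peptide transporter TAP1 stood at 15.1 FPKM in the GNF5 library and 3.61 FPKM in the DMSO library, and the light chain B2M at 561 FPKM in the GNF5 library and 239 FPKM in the DMSO library. TAP1 was kept only through its level with GNF5. HLA-B stood at 74.3 FPKM with GNF5 and 21.8 FPKM with DMSO and HLA-E at 91.8 FPKM with GNF5 and 39.0 FPKM with DMSO, while HLA-C stood at 191 FPKM with GNF5 and 175 FPKM with DMSO, less than 2-fold apart. The HLA genes are near-identical in places, and how reads were split among them is not given in the sources used here, so single HLA values are uncertain. In the shRNA and scrambled libraries B2M stood at 209 FPKM with the shRNAs and 263 FPKM with the scrambled shRNA and HLA-B at 18.5 FPKM with the shRNAs and 14.5 FPKM with the scrambled shRNA, and for 4 of the 14 genes the GNF5 library stood at least 2-fold above the other 3 (3.08% of all genes). TAP1 was among these 4. Few type I interferon genes reached the level: of 44 listed 8 were kept, 1 higher and 0 lower, beside 5.25% and 5.93% of all genes. Their median was -0.23 over DMSO and 0.22 over the scrambled library, across tables. With no minimum level the median over all 44 was -0.016. The 1 gene past 2-fold was IRF7, at 7.64 FPKM with GNF5 and 2.77 FPKM with DMSO, kept only through its level with GNF5.

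**Figure D3:**
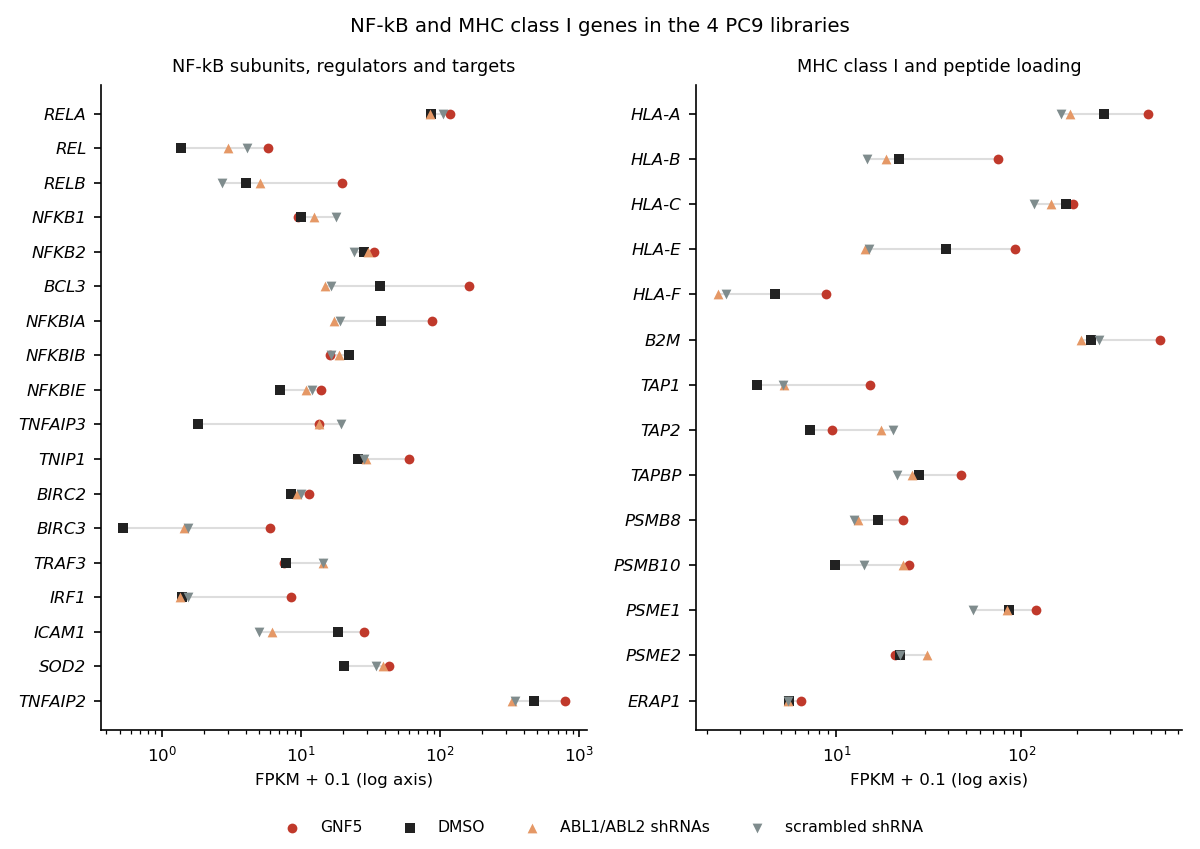
FPKM plus 0.1 (log axis) of 18 NF-kB genes and 14 genes of MHC class I and peptide loading in the 4 PC9 libraries, with red circles for GNF5, black squares for DMSO, orange triangles for the ABL1/ABL2 shRNAs and grey triangles for the scrambled shRNA, the last 2 from a separately normalised table. The red circle stands alone at the right for BCL3, RELB, IRF1, HLA-B, B2M and TAP1, and TNFAIP3 shows the black square alone at the left.

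Early response genes were split. ERK signalling below the EGF receptor induces FOS, EGR1 and the feedback inhibitors of the DUSP and SPRY families within minutes to hours. Of 31 listed genes 27 were kept, and 6 were at least 2-fold lower and 2 higher, beside 5.93% and 5.25% of all genes, with a median of -0.17, close to 0. FOS stood at 55.4 FPKM in the GNF5 library and 368 FPKM in the DMSO library, and FOSB at 5.13 FPKM in the GNF5 library and 37.0 FPKM in the DMSO library. EGR1 stood at 2.102 FPKM with GNF5 and 13.9 FPKM with DMSO. The feedback genes DUSP6, a phosphatase of ERK, at 11.7 FPKM with GNF5 and 60.1 FPKM with DMSO, and SPRY4, at 7.25 FPKM with GNF5 and 39.9 FPKM with DMSO, were lower, as was ETV5, at 12.0 FPKM with GNF5 and 32.9 FPKM with DMSO. Others of the same families were level: DUSP4 stood at 57.6 FPKM with GNF5 and 59.0 FPKM with DMSO, SPRY2 at 7.25 FPKM with GNF5 and 6.64 FPKM with DMSO and ETV4 at 59.0 FPKM with GNF5 and 64.7 FPKM with DMSO. FOSL2, at 66.9 FPKM with GNF5 and 24.7 FPKM with DMSO, and MAFF, at 57.2 FPKM with GNF5 and 21.8 FPKM with DMSO, both AP-1 related factors, were the 2 higher ones, and MYC stood at 349.7 FPKM with GNF5 and 246 FPKM with DMSO.

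For FOS and FOSB the DMSO library stood apart. FOS was listed at 91.0 FPKM with the shRNAs and 80.5 FPKM with the scrambled shRNA, and FOSB at 7.42 FPKM with the shRNAs and 7.25 FPKM with the scrambled shRNA. EGR1 and SPRY4 differed in kind, with the GNF5 library the lowest and the DMSO library the highest of the 4: EGR1 stood at 7.75 FPKM with the shRNAs and 8.11 FPKM with the scrambled shRNA, and SPRY4 at 16.9 FPKM with the shRNAs and 19.7 FPKM with the scrambled shRNA. By the 2-fold rule the DMSO library was above the other 3 for 4 of the 27 genes (1.23% of all genes) and the GNF5 library below the other 3 for 2 (2.72%). Among ligands of the EGF receptor, HBEGF stood at 23.3 FPKM in the GNF5 library and 139.9 FPKM in the DMSO library, with 36.6 FPKM with the shRNAs and 57.4 FPKM with the scrambled shRNA, and TGFA at 13.0 FPKM with GNF5 and 21.6 FPKM with DMSO. TGFA carries the status FAIL in the authors' deposited table and so has no test. The receptor EGFR itself stood at 105 FPKM with GNF5 and 97.5 FPKM with DMSO. In the authors' deposited table q was 0.00308 for FOS, 0.0454 for EGR1, 0.0398 for SPRY4 and 0.00897 for HBEGF, but 0.0625 for DUSP6, 0.0743 for FOSB and 0.452 for ETV5.

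ATF4 targets were lower as a list. ATF4 is translated when amino acids are short or the ER is stressed, and it induces amino acid transporters, synthesis enzymes and tRNA synthetases. Of 33 listed genes 31 were kept, 11 at least 2-fold lower and 1 higher, beside 5.93% and 5.25% of all genes, with a median of -0.63. CHAC1, which degrades glutathione, stood at 5.61 FPKM in the GNF5 library and 41.2 FPKM in the DMSO library, and SLC7A11, the cystine importer, at 3.78 FPKM in the GNF5 library and 27.4 FPKM in the DMSO library. The neutral amino acid carrier SLC1A4 stood at 0.701 FPKM with GNF5 and 6.63 FPKM with DMSO, the stress sensor SESN2 at 6.31 FPKM with GNF5 and 21.7 FPKM with DMSO, and CBS and CTH, both enzymes of transsulfuration, at 5.34 FPKM with GNF5 and 21.9 FPKM with DMSO and at 23.1 FPKM with GNF5 and 51.7 FPKM with DMSO. PSAT1, of serine synthesis, stood at 82.1 FPKM with GNF5 and 194 FPKM with DMSO, whereas PHGDH, the first enzyme of that route, was level at 265 FPKM with GNF5 and 283 FPKM with DMSO. ATF4 itself stood at 445 FPKM with GNF5 and 338 FPKM with DMSO, and the 1 higher gene was the proline enzyme ALDH18A1, at 30.0 FPKM with GNF5 and 14.7 FPKM with DMSO. Of 20 tRNA synthetases 3 were at least 2-fold lower and 0 higher, beside 5.93% and 5.25% of all genes, with a median of -0.40 over DMSO and 0.20 over the scrambled library, and WARS was the lowest, at 35.1 FPKM with GNF5 and 92.3 FPKM with DMSO.

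Here too the DMSO library stood apart for part of the list. In 11 of the 31 genes it stood at least 2-fold above each of the other 3 PC9 libraries, beside 1.23% of all genes, and the GNF5 library did so in 0. CHAC1 stood at 2.19 FPKM with the shRNAs and 8.07 FPKM with the scrambled shRNA. CBS stood at 2.63 FPKM with the shRNAs and 2.14 FPKM with the scrambled shRNA, and PCK2, at 25.7 FPKM with GNF5 and 63.0 FPKM with DMSO, stood at 11.8 FPKM with the shRNAs and 14.0 FPKM with the scrambled shRNA. Over the scrambled library, across tables, the list median of GNF5 was 0.81, on the other side of 0, with 13 genes at least 2-fold higher and 2 lower, beside 14.5% and 11.7% of all genes. SLC7A11 stood at 5.77 FPKM with the shRNAs and 12.2 FPKM with the scrambled shRNA. There too the DMSO library was at least 2-fold above each of the other 3 PC9 libraries, and the GNF5 library was the lowest of the 4. Genes of ER folding differed from the ATF4 targets: of 22 kept of 23 listed, 2 were higher and 0 lower, with a median of 0.32. Of all genes 5.25% were higher and 5.93% lower. CALR, a calcium-binding chaperone, stood at 704 FPKM with GNF5 and 323 FPKM with DMSO and HSPA5 at 505 FPKM with GNF5 and 347 FPKM with DMSO.

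**Figure D4:**
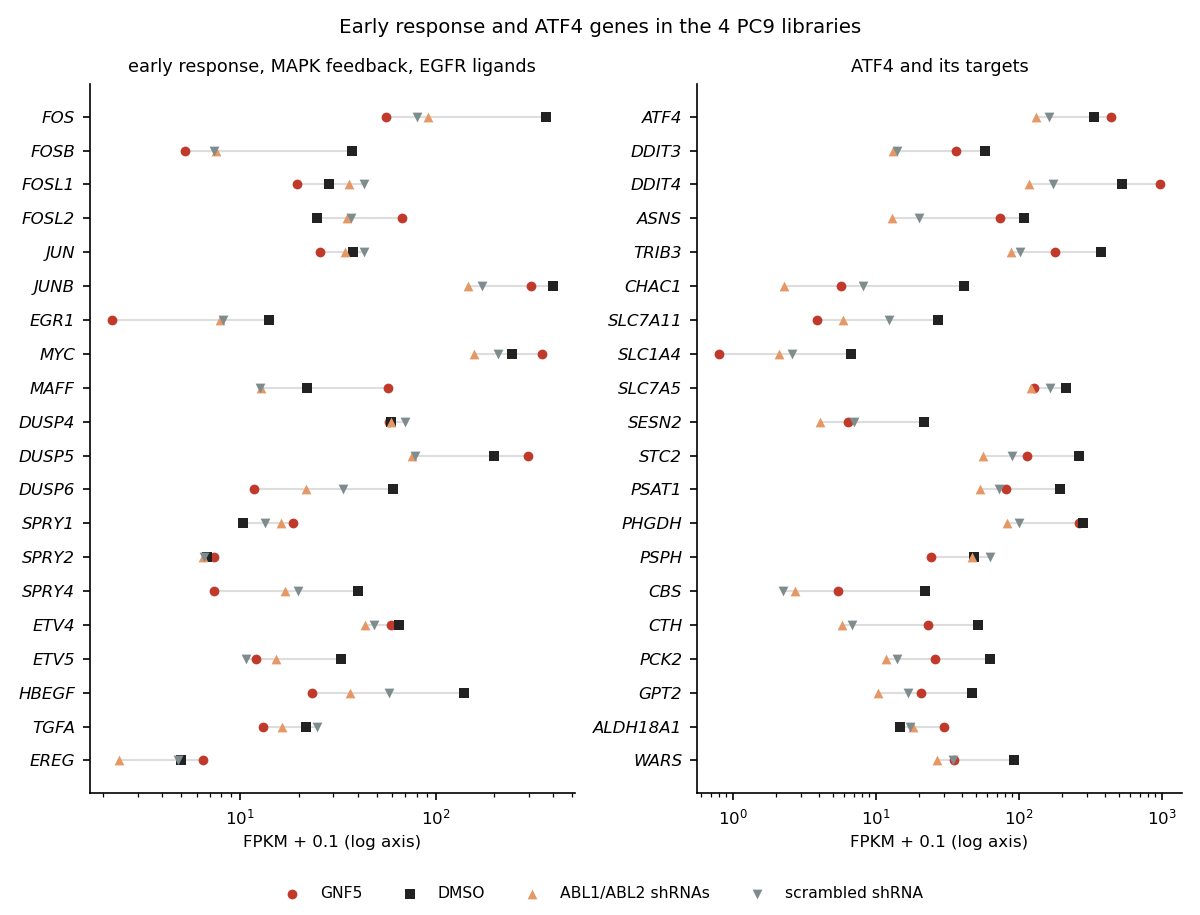
FPKM plus 0.1 (log axis) of 20 early response and EGF receptor ligand genes and of 20 ATF4 and amino acid genes in the 4 PC9 libraries, with red circles for GNF5, black squares for DMSO, orange triangles for the ABL1/ABL2 shRNAs and grey triangles for the scrambled shRNA, the last 2 from a separately normalised table. The black square stands to the right of the other 3 for FOS, FOSB, CHAC1, CBS, CTH and PCK2.

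Targets of NRF2, the factor that answers oxidants, leaned to the lower side over DMSO but not over the scrambled library. All 32 listed genes were kept, 5 at least 2-fold lower and 0 higher, beside 5.93% and 5.25% of all genes, with a median of -0.42. Over the scrambled library, across tables, the median was 0.00097, with 7 genes at least 2-fold higher and 4 lower, beside 14.5% and 11.7% of all genes. NQO1, a quinone reductase, stood at 126 FPKM with GNF5 and 299.5 FPKM with DMSO, with 266 FPKM with the shRNAs and 250.1 FPKM with the scrambled shRNA. The exporter ABCC2 stood at 15.3 FPKM with GNF5 and 37.9 FPKM with DMSO, with 40.3 FPKM with the shRNAs and 39.0 FPKM with the scrambled shRNA, so that the GNF5 library was the low one. The exporter ABCC3 stood at 116 FPKM with GNF5 and 280.2 FPKM with DMSO, with 64.4 FPKM with the shRNAs and 42.9 FPKM with the scrambled shRNA, so that the DMSO library was apart and the ratio over the scrambled library was 1.60. GCLM, of glutathione synthesis, stood at 58.4 FPKM with GNF5 and 100.2 FPKM with DMSO, short of 2-fold. The ferritin chain FTH1, at 2954 FPKM with GNF5 and 1771 FPKM with DMSO, lay on the higher side.

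Hypoxia and glucose genes lay mostly on the higher side over DMSO. Of 26 hypoxia genes 17 were kept, 5 higher and 0 lower, beside 5.25% and 5.93% of all genes, with a median of 0.81. NDRG1 stood at 126 FPKM with GNF5 and 40.9 FPKM with DMSO, with 23.9 FPKM with the shRNAs and 40.0 FPKM with the scrambled shRNA, and ADM at 32.2 FPKM with GNF5 and 10.9 FPKM with DMSO, but VEGFA, at 73.2 FPKM with GNF5 and 104 FPKM with DMSO, and CA9, at 3.28 FPKM with GNF5 and 6.47 FPKM with DMSO, both known targets of hypoxia, lay on the lower side. Of 22 kept glycolysis genes, of 23 listed, 3 were higher and 0 lower, beside 5.25% and 5.93% of all genes. Their median was 0.40 over DMSO and -0.30, on the other side of 0, over the scrambled library. ALDOC, a brain-type aldolase, stood at 329 FPKM in the GNF5 library and 31.2 FPKM in the DMSO library, with 71.9 FPKM with the shRNAs and 48.6 FPKM with the scrambled shRNA, and the hexokinase HK2 at 46.5 FPKM with GNF5 and 16.0 FPKM with DMSO. The abundant enzymes were level, GAPDH at 7162 FPKM with GNF5 and 6540.3 FPKM with DMSO and LDHA at 159.5 FPKM with GNF5 and 211 FPKM with DMSO. In the authors' deposited table q was 0.00028267 for ALDOC, 0.298 for NDRG1 and 0.327 for HK2.

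SAT1, which acetylates and so removes polyamines, was the gene of this kind furthest apart. It stood at 563 FPKM in the GNF5 library and 64.1 FPKM in the DMSO library, with 23.4 FPKM with the shRNAs and 26.3 FPKM with the scrambled shRNA, and the other 12 kept polyamine genes, of 15 listed in all, differed less than 2-fold, among them ODC1, the first enzyme of synthesis, at 39.1 FPKM with GNF5 and 32.3 FPKM with DMSO. The authors' deposited table gives q = 0.000465 for SAT1. Of 14 kept Notch genes, of 20 listed, 2 were higher and 2 lower, beside 5.25% and 5.93% of all genes, with a median of 0.53. The target genes HES4, at 216 FPKM with GNF5 and 52.6 FPKM with DMSO, and NRARP, at 148 FPKM with GNF5 and 50.7 FPKM with DMSO, were higher, and the ligand JAG1, at 26.6 FPKM with GNF5 and 59.9 FPKM with DMSO, and the glycosyltransferase LFNG, at 1.43 FPKM with GNF5 and 5.73 FPKM with DMSO, were lower.

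Integrins leaned to the lower side, and the other adhesion lists did not. Of 20 integrin subunits 11 were kept, 4 at least 2-fold lower and 0 higher, beside 5.93% and 5.25% of all genes, and ITGAE was the 1 of 11 above 0. ITGA6 and ITGB4, which pair as the laminin receptor of hemidesmosomes, stood at 72.8 FPKM with GNF5 and 161 FPKM with DMSO and at 47.9 FPKM with GNF5 and 103 FPKM with DMSO. The collagen receptor subunit ITGA2 stood at 14.9 FPKM with GNF5 and 42.2 FPKM with DMSO, with 46.1 FPKM with the shRNAs and 44.1 FPKM with the scrambled shRNA, and ITGB3 at 5.38 FPKM with GNF5 and 14.6 FPKM with DMSO, with 0.825 FPKM with the shRNAs and 0.592 FPKM with the scrambled shRNA, so the GNF5 library was apart for ITGA2 and the DMSO library for ITGB3. Of 27 laminins and focal adhesion linkers 20 were kept, 2 lower and 0 higher, beside 5.93% and 5.25% of all genes, with 11 above 0 and a median of 0.015. The 2 lower ones were FERMT1, a kindlin that activates integrins, at 7.79 FPKM with GNF5 and 38.5 FPKM with DMSO, and the tensin TNS4, at 1.44 FPKM with GNF5 and 9.94 FPKM with DMSO. Of 14 desmosome genes 7 were kept, 1 higher and 0 lower, beside 5.25% and 5.93% of all genes, with 5 above 0 and a median of 0.23. Plectin, PLEC, which links integrins to keratins, stood at 17.9 FPKM with GNF5 and 88.4 FPKM with DMSO, with 165 FPKM with the shRNAs and 175 FPKM with the scrambled shRNA, and was named after its values were seen.

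Epithelial and mesenchymal genes did not divide by class. All 27 epithelial genes were kept, 4 higher and 2 lower, beside 5.25% and 5.93% of all genes, with a median of 0.16. E-cadherin, CDH1, stood at 21.7 FPKM in the GNF5 library and 67.0 FPKM in the DMSO library, with 43.9 FPKM with the shRNAs and 74.4 FPKM with the scrambled shRNA, and the tight junction gene CLDN1 at 7.13 FPKM with GNF5 and 23.2 FPKM with DMSO. The epithelial factor ELF3, at 102 FPKM with GNF5 and 41.2 FPKM with DMSO, was higher, and EPCAM was level. Of 30 mesenchymal and TGF-beta genes 16 were kept, 5 higher and 2 lower, beside 5.25% and 5.93% of all genes, with a median of 0.23. The repressors of CDH1, SNAI2, at 22.2 FPKM with GNF5 and 4.28 FPKM with DMSO, SNAI1, at 10.2 FPKM with GNF5 and 3.25 FPKM with DMSO, and TWIST1, at 5.92 FPKM with GNF5 and 1.74 FPKM with DMSO, were higher. SNAI2, SNAI1 and TWIST1 were kept only through their level with GNF5. PMEPA1, a target and inhibitor of TGF-beta signalling, was lower, at 30.8 FPKM with GNF5 and 139 FPKM with DMSO, with 145 FPKM with the shRNAs and 146 FPKM with the scrambled shRNA. In the authors' deposited table PMEPA1 carries the status FAIL and so has no test, which leaves its values uncertain. VIM, ZEB1, ZEB2 and CDH2 did not reach 5 FPKM.

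Cell cycle inhibitors held genes on both sides. Of 28 listed genes 15 were kept, 4 higher and 2 lower, beside 5.25% and 5.93% of all genes, with a median of 0.13. CDKN1A, the p21 inhibitor, stood at 2.23 FPKM in the GNF5 library and 14.2 FPKM in the DMSO library, with 17.0 FPKM with the shRNAs and 14.96 FPKM with the scrambled shRNA, and CDKN2B, the p15 inhibitor, at 5.04 FPKM with GNF5 and 28.6 FPKM with DMSO, with 4.73 FPKM with the shRNAs and 2.66 FPKM with the scrambled shRNA. CDKN1A was thus low in the GNF5 library alone, and CDKN2B high in the DMSO library alone. GADD45A, induced by DNA damage and stress, stood at 236 FPKM with GNF5 and 61.9 FPKM with DMSO, the pro-apoptotic BBC3 at 47.0 FPKM with GNF5 and 21.5 FPKM with DMSO and the ubiquitin ligase FBXO32, a FOXO target in muscle, at 15.8 FPKM with GNF5 and 3.66 FPKM with DMSO.

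Proliferation genes were near level within the pair and far apart between the tables. Of 29 kept replication genes, of 50 listed, 2 were higher and 0 lower, with a median of 0.29, and of 34 kept mitotic genes, of 50 listed, 2 were higher and 0 lower, with a median of 0.35. These counts stand beside 5.25% higher and 5.93% lower of all genes. PCNA, the replication clamp, stood at 32.3 FPKM in the GNF5 library and 35.5 FPKM in the DMSO library, but at 214 FPKM with the shRNAs and 241 FPKM with the scrambled shRNA. Over the scrambled library the list medians of GNF5 were -1.87 and -1.48, and of the scrambled library over DMSO they were 1.99 and 1.78, all across tables. Both GNF5 and DMSO cultures thus stood low for these genes beside the transduced ones, and whether growth or the separate normalisation goes with that was not tested.

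Ribosomal protein genes showed small shifts of many members, while splicing and histone genes held some past 2-fold. Of 79 ribosomal protein genes, all of them kept, 74 lay above 0 with a median of 0.37 and 0 passed 2-fold. Of 39 kept hnRNP and SR splicing proteins 3 were higher and 4 lower, beside 5.25% and 5.93% of all genes, with ratios from -1.87 to 1.49. Their median was 0.15 over DMSO and -0.49, on the other side of 0, over the scrambled library. SFPQ, a paraspeckle protein, stood at 14.5 FPKM in the GNF5 library and 58.5 FPKM in the DMSO library, with 85.5 FPKM with the shRNAs and 89.6 FPKM with the scrambled shRNA, and SRSF3 at 23.0 FPKM with GNF5 and 61.8 FPKM with DMSO, with 130.0 FPKM with the shRNAs and 150.3 FPKM with the scrambled shRNA. SRSF4, at 36.7 FPKM with GNF5 and 15.5 FPKM with DMSO, was higher. Of 35 histone genes 15 were kept, 6 higher and 0 lower, beside 5.25% and 5.93% of all genes. Among the higher ones were HIST2H2BE, at 14.2 FPKM with GNF5 and 3.55 FPKM with DMSO, and the linker histone HIST1H1C, at 14.7 FPKM with GNF5 and 5.18 FPKM with DMSO. The replication-dependent histone transcripts lack a poly(A) tail, and how the RNA was selected is not given in the sources used here.

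Among the 15 genes furthest on the higher side with at least 10 FPKM, 10 are protein-coding. NEURL3, a ubiquitin ligase, stood at 90.5 FPKM in the GNF5 library and 6.29 FPKM in the DMSO library, with 3.43 FPKM with the shRNAs and 2.41 FPKM with the scrambled shRNA. RHOV stood at 86.7 FPKM in the GNF5 library and 13.6 FPKM in the DMSO library, with 4.50 FPKM with the shRNAs and 4.72 FPKM with the scrambled shRNA, and the adipokine gene FAM132A at 15.3 FPKM with GNF5 and 1.60 FPKM with DMSO. The coding gene C17orf49, at 38.8 FPKM with GNF5 and 4.79 FPKM with DMSO, has a readthrough entry with its neighbour, so reads may be split between them. The readthrough entry, RNASEK-C17ORF49, went the other way. There the DMSO library, at 21.0 FPKM, was at least 2-fold above each of the other 3 PC9 libraries. In the authors' deposited table q was 0.9999 for C17orf49. The rest were RNU86, listed at 1072 FPKM with GNF5 and at 0 with DMSO, WASH7P, at 19.7 FPKM with GNF5 and 0 with DMSO, the pseudogene RPL21P28, SCARNA22 and LOC613038, whose reads can be shared with host genes or copies. RPL21P28 carries the status LOWDATA in the authors' deposited table, where q was 0.9999 for RNU86 and 0.537 for WASH7P. WASH7P also stood at 11.7 FPKM with the shRNAs and at 0 with the scrambled shRNA.

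Of the 15 furthest on the lower side 13 are protein-coding. DMBT1, a secreted mucosal protein, stood at 0.382 FPKM in the GNF5 library and 11.5 FPKM in the DMSO library, with 0.271 FPKM with the shRNAs and 0.318 FPKM with the scrambled shRNA, so that the DMSO library was apart. KRCC1 stood at 3.32 FPKM with GNF5 and 25.1 FPKM with DMSO, CCDC64B at 5.67 FPKM with GNF5 and 40.0 FPKM with DMSO, the carboxypeptidase CPVL at 1.48 FPKM with GNF5 and 13.9 FPKM with DMSO and the mucin MUC5B at 1.78 FPKM with GNF5 and 14.1 FPKM with DMSO. The lysosomal phosphatase ACP2, at 1.17 FPKM with GNF5 and 11.7 FPKM with DMSO, with 14.4 FPKM with the shRNAs and 20.3 FPKM with the scrambled shRNA, and the galactosyltransferase B3GALT6, at 2.56 FPKM with GNF5 and 18.2 FPKM with DMSO, with 18.3 FPKM with the shRNAs and 22.2 FPKM with the scrambled shRNA, were low in the GNF5 library alone. In the authors' deposited table q was 0.9999 for ACP2 and 0.0580 for B3GALT6. CCRL2, a chemokine-binding receptor, stood at 5.58 FPKM with GNF5 and 35.2 FPKM with DMSO. SNAR-B1, at 0.218 FPKM with GNF5 and 33.4 FPKM with DMSO, and VTRNA2-1, listed at 0 with GNF5 and at 18.2 FPKM with DMSO, are short polymerase III transcripts.

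The same genes were read in the other lines given GNF5, each within its own table. The cholesterol list had a median of -0.46 in PC9M and 0.27 in H358, and HMGCS1 had centred ratios of -0.45 in PC9M and 0.37 in H358. The ATF4 list had medians of 0.87 in PC9M and 0.38 in H358, both above 0, and CHAC1 a ratio of 2.55 in PC9M. The NF-kB list had medians of 0.59 in PC9M and 0.052 in H358, where 10 of 16 kept genes lay above 0, and RELB had a ratio of 1.31 in PC9M. The MHC class I list had medians of 0.33 in PC9M and 0.27 in H358. The replication list had medians of -0.89 in PC9M and -0.72 in H358. Across genes kept in both, Pearson's r of the PC9 ratios was 0.133 with those of PC9M (7201 genes) and 0.205 with those of H358 (7237 genes), a description over genes that are not independent. The dose in PC9M was 20 mM by the labels, and whether lines differ was not tested.

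With the ABL1/ABL2 shRNAs in PC9, over their own scrambled control, the medians of these 4 lists were nearer 0. All ratios spread less in that pair, with an SD across genes of 0.375 against 0.667 for GNF5 over DMSO. The cholesterol list had a median of 0.61, the ATF4 list -0.30, NF-kB genes 0.042 and MHC class I genes 0.28. All 21 cholesterol enzymes lay above 0 with the shRNAs. Of these, 4 were at least 2-fold higher and 0 lower, beside 1.91% of all genes in either direction. Centred ratios with the shRNAs were 0.78 for HMGCS1, -1.39 for CHAC1, -0.027 for BCL3, -0.048 for SAT1 and 0.29 for FOS. Pearson's r across 7684 genes was 0.0891, again as a description.

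**Figure D5:**
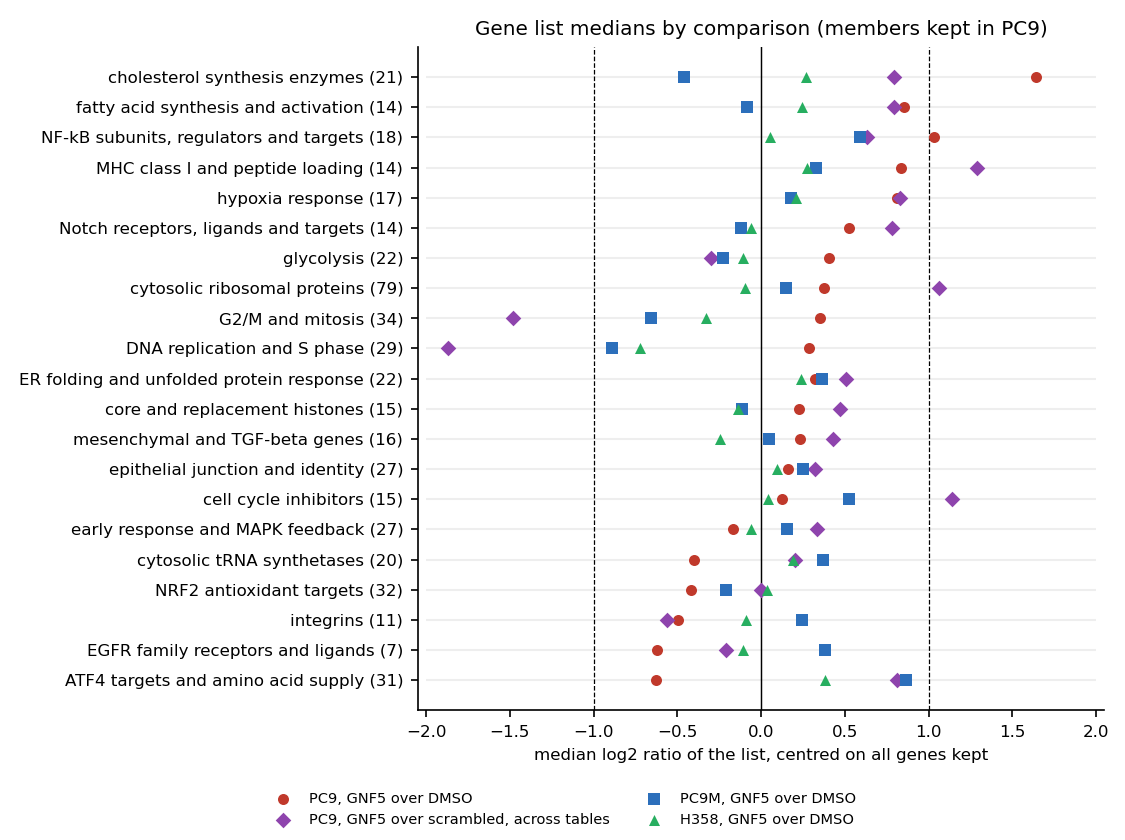
Median centred log2 ratio of 21 gene lists (members kept in PC9 in brackets) for GNF5 over DMSO in PC9 (red circles), GNF5 over the scrambled library in PC9 across tables (purple diamonds), and GNF5 over DMSO in PC9M (blue squares) and H358 (green triangles), with dashed lines at 2-fold. The red circle lies furthest right for cholesterol synthesis, at 1.64, and for ATF4 targets it lies left of 0, at -0.63, with the other 3 symbols right of 0.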

How the data were processed

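RNA of 10 cell cultures was sequenced with Illumina libraries, and the submitters' processing notes name TopHat, Cuffdiff and the build hg18, with versions and annotation not given in the sources used here. The authors deposited 1 table a pair, with FPKM for both libraries and p-values and q-values of 1 library against 1. Each table has its own normalisation, and where levels of 2 tables are compared the text says so. EEF1A1 has no estimate in the PC9 table.

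From the deposited FPKM of PC9, entries with date-like symbols and MIR, SNORD and SNORA entries were left out, genes with at least 5 FPKM in either library were kept, and the log2 ratio after adding 1 FPKM was centred on their median. With 1 library a group no test was made, and a 2-fold limit served as the call. Members and gene lists were chosen with earlier results of these data known. Named genes were ABL1 and ABL2, the 15 highest and 15 lowest genes with at least 10 FPKM, list members past 2-fold (up to 8 a side) and members that define a list. Of the genes kept, 8000 matched a protein-coding symbol, 67 carried the status FAIL and 10 LOWDATA. The ratio had a Spearman rho of 0.049 with transcript GC and -0.044 with transcript length (90.0% of genes with a value), and 0.150 with the mean level. Promoter sequences are from RefSeq on GRCh38.p14, not from the hg18 of the files. The motif forms given were settled on after other forms had been searched. Values of some list members are not reported here. The ratio and count steps were tested on simulated data. Alternatives were other pseudocounts, minimum levels, centring and quantile normalisation. Python 3.11.15 was used with numpy 2.4.6, pandas 2.3.3 and matplotlib 3.10.9.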

Additional observations from a re-analysis of the deposited data

Results flagged for a closer look

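Cholesterol synthesis enzymes had a list median of 1.64 with GNF5 in PC9 and -0.46 in PC9M, opposite directions in the 2 lines. ATF4 targets had a list median of -0.63 in PC9 and 0.87 in PC9M, opposite again. Each line has 1 library a group, so neither difference was tested, and the DMSO library stood at least 2-fold apart from each of the other 3 PC9 libraries in 7 of 21 cholesterol enzymes and 11 of 31 ATF4 genes.

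The short RNA entries that were left out differed between the 2 libraries as well. SNORA40 was listed at 2316 FPKM in the GNF5 library and 215 FPKM in the DMSO library, and SNORA8 at 964 FPKM in the GNF5 library and 65.8 FPKM in the DMSO library, both marked significant in the authors' deposited table with q = 0.00658 and q = 0.00843. No other short RNA entry was marked significant. Of 291 such entries with at least 5 FPKM in either library, 186 were at least 2-fold higher and 51 lower with GNF5. Of the genes kept, 5.25% were higher and 5.93% lower. Among the 291 entries, 34 were listed at 0 with GNF5 and 83 with DMSO. How the RNA was selected is not given in the sources used here, so these levels are uncertain.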

How the results depend on the processing

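The counts of 435 higher and 491 lower genes stayed within 1.5 times of these values with a pseudocount of 0.1, a minimum of 1 FPKM, no centring, centring on protein-coding genes, quantile normalisation, entries with status OK alone, and the short RNAs kept. They were 213 and 182 with a pseudocount of 5, and 191 and 232 of 4004 genes at a minimum of 20 FPKM, where fewer genes were tested. With no minimum they were 428 and 766 of 21651. The higher share of the genes past 2-fold was 47.0% as reported, 35.9% with no minimum and between 38.3% and 53.9% under the other planned settings. Without centring all ratios shift by -0.068, and the counts were 357 and 575. With the scrambled library of PC9 as the control, an alternative added after the data were seen and set across tables, the counts were 1197 higher and 965 lower, and the cause was not tested.

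Of 47 list medians, 38 kept their sign under the planned settings. The other 9, which lay between -0.17 and 0.14 as reported, changed sign under at least 1 of them, to values between -0.091 and 0.39, and were those of mucins, laminins and focal adhesion linkers, ABL adaptors, lung lineage factors, ion transport, other receptor tyrosine kinases, aryl hydrocarbon receptor targets, BMP genes and lysosome genes. The median of NF-kB genes was the 1 whose side of the 2-fold limit changed, and it was 1.03 as reported, 0.81 with a pseudocount of 5, 0.84 at a minimum of 1 FPKM, 0.72 at 20 FPKM, 0.61 with no minimum and 0.96 without centring. With the scrambled library as the control it was 0.63, and cholesterol synthesis 0.79. Medians past 2-fold there were those of cytokines (1.68), MHC class I (1.29), lung lineage factors (1.26), mucins (1.10, turned from -0.17), complement (1.05), replication (-1.87, turned), mitosis (-1.48, turned), cell cycle inhibitors (1.14) and ribosomal proteins (1.06).

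Of 175 genes, those named by the rule and list members past 2-fold, none turned under the planned settings, while 46 were no longer past 2-fold with a pseudocount of 5, 13 without centring and 8 with quantile normalisation. Against the scrambled library 46 of the 175 were no longer past 2-fold and 28 more turned, with centred ratios of ABCC3 1.60, ABCG1 1.81, CBS 1.20, CDKN2B 0.91, CDT1 -0.37, CKS2 -0.18, CTH 1.82, DMBT1 0.26, E2F2 -0.34, ETV5 0.35, GPT2 0.49, HNRNPL -0.058, ITGB3 2.19, KIF20A -0.95, LPIN1 -0.13, MARS 0.19, NSDHL -0.070, PCK2 1.03, PSAT1 0.36, SCARNA22 -1.66, SESN2 0.062, SFTPB 2.24, SLC2A3 -0.51, SPDEF 1.78, STC2 0.52, TNFAIP3 -0.31, TRIB3 1.00, WARS 0.22. No paired analysis was possible because each group holds 1 library. Leaving out a replicate was not possible for the same reason. Depth is unknown, so the precision of low FPKM values cannot be given.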

Other observations

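Several genes named here after their values were seen stood at least 2-fold higher in the GNF5 library than in each of the other 3 PC9 libraries. FOXO3, a factor restrained by AKT, stood at 80.4 FPKM in the GNF5 library and 21.7 FPKM in the DMSO library, with 15.7 FPKM with the shRNAs and 26.3 FPKM with the scrambled shRNA. PIK3IP1, an inhibitor of PI3 kinase, stood at 23.2 FPKM in the GNF5 library and 4.17 FPKM in the DMSO library, with 1.36 FPKM with the shRNAs and 1.501 FPKM with the scrambled shRNA, and had a centred ratio of 0.071 with GNF5 in H358. The clock gene PER1 stood at 20.2 FPKM in the GNF5 library and 3.69 FPKM in the DMSO library. TIPARP, a target of the aryl hydrocarbon receptor, stood at 78.6 FPKM in the GNF5 library and 16.9 FPKM in the DMSO library, and CYP1B1, another such target, at 79.0 FPKM in the GNF5 library and 27.3 FPKM in the DMSO library, with centred ratios of 1.10 in PC9M and 1.05 in H358. The 7 kept genes of this receptor and its targets, of 10 listed, had a median of -0.003, with 2 at least 2-fold higher and 1 lower, beside 5.25% and 5.93% of all genes.

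Other genes that stood apart in this way were chosen likewise, with no list behind them. The splicing kinase CLK1 stood at 60.2 FPKM in the GNF5 library and 19.4 FPKM in the DMSO library, the cyclin CCNL1 at 36.5 FPKM in the GNF5 library and 10.7 FPKM in the DMSO library, and the nuclear long noncoding RNA MALAT1 at 21.5 FPKM in the GNF5 library and 5.33 FPKM in the DMSO library. EIF4A2 and RABGGTB, which carry small nucleolar RNAs in their introns, stood at 490.2 FPKM with GNF5 and 155 FPKM with DMSO and at 409 FPKM with GNF5 and 123 FPKM with DMSO. On the lower side NCOA5, a nuclear receptor coactivator, stood at 2.29 FPKM in the GNF5 library and 14.5 FPKM in the DMSO library, and the arginine methyltransferase PRMT6 at 0.960 FPKM in the GNF5 library and 6.49 FPKM in the DMSO library, with centred ratios of -0.49 in PC9M and -0.90 in H358. TERT, the telomerase catalytic subunit, stood at 8.53 FPKM in the GNF5 library and 41.6 FPKM in the DMSO library, with 11.7 FPKM with the shRNAs and 9.34 FPKM with the scrambled shRNA, so that the DMSO library was apart.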
